A study of Mus musculus with 160 samples.

Results

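The data are transcriptomes of endothelial cells (ECs) sorted from the aorta-gonads-mesonephros (AGM) region of mouse embryos at E10.5 and divided by a GFP reporter at the Gata3 locus. Both populations came from Gata3-GFP +/- embryos, in which GFP is knocked into 1 Gata3 allele, so every cell of either population carried the reporter allele. ECs were gated as VE-cadherin (Cdh5) positive and negative for the blood cell antigens CD41 and CD45, and each library was made from a pool of 20 cells by Smart-seq2 without further culture or treatment. Members were the pools labelled as Gata3+ or Gata3- endothelial cells that had more than 500000 counts on genes and ERCC spike-ins together, more than 20% of reads on genes, and less than 20% mitochondrial and less than 20% spike-in counts. Of 160 pools in the series, 40 carry these labels and 39 passed, 19 of Gata3-GFP+ ECs and 20 of Gata3-GFP- ECs. The Gata3-GFP+ pool that failed had 366600 counts, of which 86.7% were spike-in. Cells were sorted from several groups of pooled embryos, but the labels tie no pool to an embryo, litter or sort day, so the p-values below measure the spread between pools.

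The dorsal aorta of the AGM is where a subset of arterial ECs, the hemogenic endothelium, gives rise to the first hematopoietic stem cells through the endothelial-to-hematopoietic transition (EHT). Arterial identity is set by VEGF and Notch signaling, with DLL4 and JAG1 as ligands and the HEY factors as targets, whereas venous identity depends on the nuclear receptor NR2F2 (COUP-TFII), which restrains Notch signaling, and lymphatic ECs arise from veins under PROX1. Aortic ECs also deposit the first elastic matrix and meet the highest flow in the embryo. The question was which vessel identity and which pathways separate the ECs with Gata3-GFP from those without it.

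The passing pools held 1400824 to 6006894 counts on genes in Gata3-GFP+ ECs and 1822577 to 5732291 in Gata3-GFP- ECs. Of 15073 genes tested, 2932 (19.5%) had a higher level in Gata3-GFP+ ECs and 2492 (16.5%) a lower one with an adjusted p under 0.01 (quasi-likelihood test of edgeR, adjusted after Benjamini and Hochberg), so 36.0% of all genes were called and a list's count has to be read against that share. In 239 genes (1.59%) every Gata3-GFP+ pool lay above every Gata3-GFP- pool, and in 225 (1.49%) every one lay below. The lists were chosen with earlier results of these data known, so their counts describe the populations and test nothing. Some genes are on more than 1 list, such as Hey2 and Dll4 (arterial and Notch) or Flt4 and Lyve1 (venous and lymphatic). Each level below is in CPM, reads of a gene over the TMM-scaled library total, for the lowest, median and highest pool, and differences as log2 fold changes of Gata3-GFP+ over Gata3-GFP- ECs with their standard error (SE). When libraries were scaled to the spike-ins instead, all log2 fold changes moved by -0.70 at the median and 951 genes (6.31%) were higher against 5685 (37.7%) lower, so a difference with TMM is one relative to the other genes of the cell. Within a pool of 20 cells, fewer cells of a type and less RNA per cell cannot be told apart.

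Gata3 itself had 28.3, 77.9 and 178 CPM as lowest, median and highest value in Gata3-GFP+ pools and 4.42, 10.7 and 30.5 CPM in Gata3-GFP- pools. The ranges touched, since the lowest GFP+ pool lay below the highest GFP- pool. Cdh5, the antigen of the sort, had 751, 999 and 1774 CPM against 277, 437 and 729 CPM, and no pool of either population was without it. The first principal component over the 2000 most variable genes held 42.2% of the variance and separated the populations without overlap, with scores of 30.5 to 59.0 in Gata3-GFP+ and -48.4 to -32.1 in Gata3-GFP- pools. One Gata3-GFP+ pool stood apart on component 2, with a score of 71.7. It was also the shallowest passing pool, with 38.5% of its reads not aligned. A different Gata3-GFP+ pool held 0.433% of its counts on mesenchymal and mural markers, against 0.0565% in the next pool.

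Arterial genes as a group were higher in Gata3-GFP+ ECs. All 28 genes of the arterial list were tested, and all 28 were called higher (0 were lower by edgeR, by DESeq2 or at an unadjusted p under 0.05), with a median log2 fold change of 3.24 against 0.10 over all genes tested. In 21 of the 28 the populations did not overlap, beside 1.59% of all genes in that direction. Because the list was chosen with earlier results of these data known, these counts are no independent test of arterial identity. With spike-in scaling 26 of the 28 stayed higher, beside 6.31% of all genes, at a median of 2.62, and the remaining pair was Igfbp3 and Acvrl1, a BMP receptor. The count of 28 was the same without either of the pools that stood apart.

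**Figure D1:**
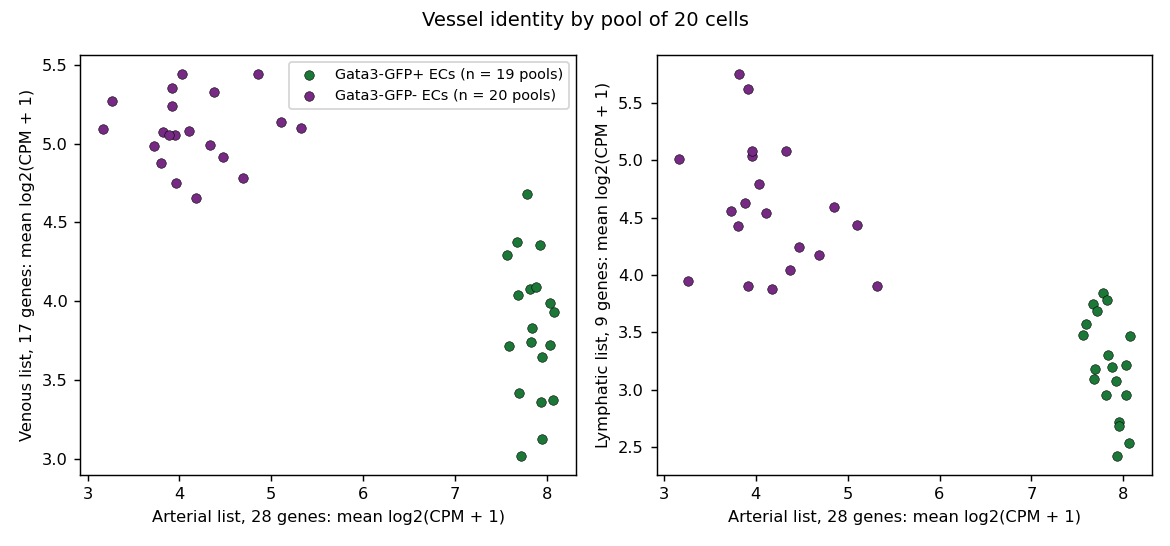
Mean log2(CPM + 1) over the 28 arterial genes (x axis) against that over 17 venous genes (left, y axis) and 9 lymphatic genes (right, y axis), 1 point per pool, for 19 Gata3-GFP+ and 20 Gata3-GFP- pools. GFP+ pools sit at 7.56 to 8.07 on the arterial axis and GFP- pools at 3.17 to 5.32.

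The promoters of 3 arterial genes and of Isl1, a LIM homeobox factor, are shown as examples of genes that rose by more than 5 on the log2 scale without overlap between the populations. Other genes that met both conditions, such as Ltbp4 and Dkk2, are not shown. Each sequence is the 250 bases before the RefSeq start (GRCm38.p6), read 5′ to 3′ on the gene's strand, and capitals mark the letters of 5 motifs searched on both strands, which are AGATAA or TGATAA for GATA factors, TGGGAA for RBPJ, ACAATG for SOX factors, CACCC for Kruppel-like factors and CACGTG for the E-box. The Gkn3 window is chr6:87388936-87389185 on the minus strand, the Hey2 window chr10:30842784-30843033 on the minus strand, the Gja5 window chr3:97032152-97032401 on the plus strand and the Isl1 window chr13:116309689-116309938 on the minus strand. In GENCODE M21 the Gkn3 and Gja5 windows hold no exon base, the Hey2 window ends with 18 exon bases and the Isl1 window with 1.
Gkn3: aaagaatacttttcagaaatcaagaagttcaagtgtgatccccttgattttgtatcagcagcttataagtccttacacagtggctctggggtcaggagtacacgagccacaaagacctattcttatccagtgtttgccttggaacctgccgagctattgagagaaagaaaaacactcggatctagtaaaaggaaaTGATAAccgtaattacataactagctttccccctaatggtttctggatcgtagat
Hey2: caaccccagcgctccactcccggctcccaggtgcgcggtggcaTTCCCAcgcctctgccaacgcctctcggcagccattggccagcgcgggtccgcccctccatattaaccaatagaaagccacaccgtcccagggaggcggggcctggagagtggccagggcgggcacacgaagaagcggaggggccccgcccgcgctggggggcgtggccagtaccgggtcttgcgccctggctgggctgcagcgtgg
Gja5: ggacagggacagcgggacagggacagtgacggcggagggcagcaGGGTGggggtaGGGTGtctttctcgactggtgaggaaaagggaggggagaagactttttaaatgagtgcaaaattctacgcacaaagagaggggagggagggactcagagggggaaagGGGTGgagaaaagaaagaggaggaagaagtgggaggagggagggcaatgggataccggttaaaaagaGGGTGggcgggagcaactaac
Isl1: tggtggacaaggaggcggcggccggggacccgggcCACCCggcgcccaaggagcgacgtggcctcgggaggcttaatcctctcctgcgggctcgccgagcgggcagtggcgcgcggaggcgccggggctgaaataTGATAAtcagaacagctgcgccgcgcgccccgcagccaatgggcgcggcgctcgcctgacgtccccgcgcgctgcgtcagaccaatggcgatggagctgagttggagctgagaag
The Gkn3 window holds TGATAA starting 55 bases before the start, and the Isl1 window holds the same letters at 115 bases and CACCC at 215 bases. The Hey2 window holds TTCCCA, the reverse complement of the RBPJ letters, at 207 bases, and the Gja5 window holds 4 copies of GGGTG. Such letters were common. Over 24 promoters matched to 21 arterial genes, 12.5% held the GATA letters, 16.7% those of RBPJ and 8.33% those of SOX, beside 9.13%, 20.6% and 6.19% of the 12551 promoters of genes tested and 16.6%, 21.6% and 10.7% of all 32851 promoters. The letters for Kruppel-like factors were in 66.7% of the arterial promoters, 57.2% of those tested and 52.0% of all, and the E-box in 0%, 8.13% and 6.02%.

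Among arterial transcription factors, Hey2, the Notch target that marks arterial fate, ranged over 105, 172 and 236 CPM in Gata3-GFP+ pools and 0.354, 2.30 and 18.8 CPM in Gata3-GFP- pools. The log2 fold change was 5.65 ± 0.31 (SE, edgeR adjusted p = 9.2e-19). All 19 GFP+ pools were above all 20 GFP- pools, with a gap between 18.8 and 105 CPM for Hey2. Hey1, its paralog, had 277, 334 and 472 CPM against 1.23, 42.5 and 122 CPM. The log2 fold change of Hey1 was 2.92 ± 0.25. Sox17, an arterial SOX factor whose exons overlap an antisense gene over 16.8% of their length, did not overlap between the populations either, at a log2 fold change of 1.73 ± 0.13. Epas1 (HIF2A), the hypoxia-responsive factor enriched in arteries, followed with 282, 451 and 632 CPM against 56.5, 92.9 and 186 CPM.

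Gap junction genes, which couple neighboring ECs, were divided. Gja5 (connexin 40) had 590, 846 and 1270 CPM in Gata3-GFP+ pools and 1.66, 6.36 and 79.5 CPM in GFP- pools, with a log2 fold change of 5.78 ± 0.39 (edgeR adjusted p = 3.2e-16). Gja4 (connexin 37) had 1092, 1507 and 2106 CPM against 3.79, 78.1 and 292 CPM. In both genes the spread on a log scale was wider among GFP- than among GFP+ pools, and the populations did not overlap. Gja1 (connexin 43) moved the other way, with 7.92, 79.3 and 255 CPM against 176, 235 and 512 CPM and a log2 fold change of -1.41 ± 0.29. Per kilobase of exon, the mean levels in Gata3-GFP+ ECs were 879 CPM for Gja4, 156 for Gja5 and 9.40 for Gja1, and in Gata3-GFP- ECs 57.8 for Gja4, 25.1 for Gja1 and 2.86 for Gja5. The order of Gja5 and Gja1 thus differed between the populations, while Gja4 came first in both.

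Secreted, kinase and surface proteins of arterial ECs were higher too. Gkn3, a gastrokine-family gene whose RNA is found in arterial endothelium, had 12.4, 131 and 234 CPM in GFP+ pools and 0, 0.347 and 0.942 CPM in GFP- pools, a log2 fold change of 8.16 ± 0.39 (edgeR adjusted p = 8.4e-21). Mgp, the matrix Gla protein that inhibits calcification and BMP, had 13, 94.6 and 346 CPM against 0, 0 and 14.3 CPM. Gkn3 thus separated every pool, and Mgp all but the ends of the ranges. Bmx, a cytoplasmic tyrosine kinase of arterial endothelium, had 47.2, 120 and 192 CPM against 0, 1.18 and 39.6 CPM. Efnb2, the arterial ephrin ligand, had 470, 589 and 727 CPM against 36.3, 109 and 211 CPM, while its venous receptor Ephb4 had 81, 122 and 196 CPM against 86.9, 126 and 194 CPM. The ligand was thus higher by 2.41 ± 0.15 on the log2 scale, and for Ephb4 the log2 fold change was -0.07 ± 0.10 with TMM and -0.74 with spike-in scaling. The chemokine Cxcl12 and its receptor Cxcr4 were both higher, at log2 fold changes of 5.30 ± 0.50 and 3.36 ± 0.52.

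**Figure D2:**
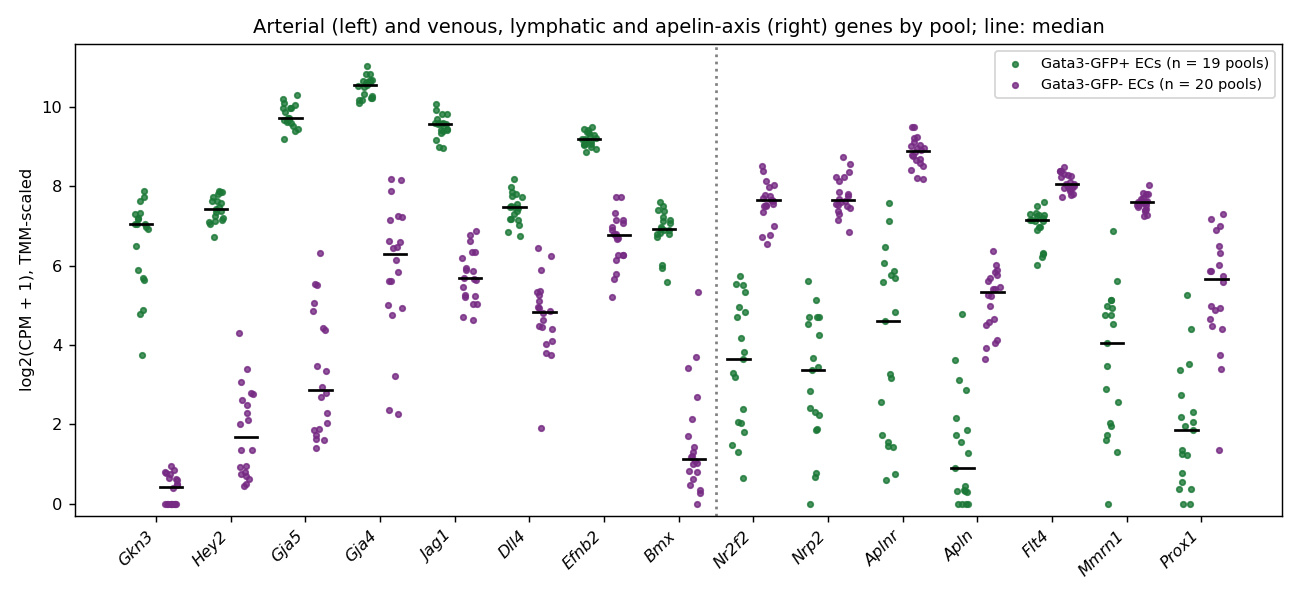
Level of 15 genes as log2(CPM + 1), 1 point per pool, for 19 Gata3-GFP+ pools (green) and 20 Gata3-GFP- pools (purple), with the median as a black line. The 8 arterial genes left of the dotted line are higher in GFP+ pools and the 7 genes on the right are lower, and Apln and Prox1 show pools of both populations at the same level.

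Variation among the pools of a population also differed in size between the lists. The median coefficient of variation over the 28 arterial genes was 24.0% in Gata3-GFP+ pools and 66.2% in Gata3-GFP- pools, whereas over the 17 venous genes tested it was 101% and 59.0%. Over all genes tested it was 49.5% and 42.7%. In both lists the population with the lower level had the larger coefficient, and at low counts sampling adds to it. Within each population the level of Gata3 was compared with that of Hey2, Gja5, Sox17, Dll4 and Nr2f2, 10 relations in all. None passed after Benjamini-Hochberg adjustment. The largest Pearson r was that of Hey2 in Gata3-GFP- pools, 0.53 (permutation p = 0.0177, adjusted p = 0.18, n = 20), with a Spearman rho of 0.50 (permutation p = 0.0267, adjusted p = 0.27). Without the 2 pools farthest from the median Gata3 level, r was 0.52.

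Venous genes were lower in Gata3-GFP+ ECs in the main. Of 20 genes listed, 17 were tested, of which 9 were lower, 2 higher and 6 not called, with a median log2 fold change of -1.06. Nr2f2, which specifies veins, had 0.578, 11.4 and 52.2 CPM in GFP+ pools and 93.1, 200 and 366 CPM in GFP- pools, a log2 fold change of -3.51 ± 0.36 (edgeR adjusted p = 8.8e-11). Nrp2, the VEGF-C co-receptor of veins and lymphatics, had 0, 9.28 and 48.4 CPM against 114, 200 and 428 CPM. Both genes left a gap between the populations, although GFP+ pools ranged from near 0 to about 50 CPM. Aplnr, the apelin receptor of venous and sprouting ECs, had 0.514, 23.4 and 192 CPM against 292, 474 and 722 CPM, and its ligand Apln, a tip cell product, was lower by 3.45 ± 0.52 on the log2 scale. Against the list's name, Vwf, the von Willebrand factor of Weibel-Palade bodies, was higher, with 1107, 1426 and 2817 CPM against 20.8, 49.0 and 149 CPM. Vcam1, a leukocyte adhesion molecule, was the other higher member, at a median of 3.24 CPM against 0.257 CPM.

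Lymphatic genes followed the venous ones. Of 9 tested, 7 were lower and 1 higher, at a median of -2.78. Among the 7, Flt4 and Lyve1 are on the venous list too. Prox1 had 0, 2.60 and 37.3 CPM in Gata3-GFP+ pools and 1.55, 49.7 and 157 CPM in Gata3-GFP- pools, and its ranges overlapped. Flt4 (VEGFR3), the receptor for VEGF-C, had 63.8, 141 and 194 CPM against 213, 264 and 361 CPM, without overlap. Mmrn1, a multimerin of lymphatic endothelium and platelets, had 0, 15.6 and 116 CPM against 153, 192 and 263 CPM. The higher member was Foxc2, a forkhead factor of lymphatic valves and embryonic arteries, at 69.3, 89.7 and 124 CPM against 10.3, 20.3 and 47.4 CPM. Among 22 genes of tip cells and capillaries 9 were higher and 9 lower, and with spike-ins 3 were higher and 10 lower. Kcne3, a potassium channel subunit, had the largest fall at -4.52 ± 0.52, and Mmp14, a membrane-bound matrix protease, was higher by 1.56 ± 0.12.

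Genes shared by all endothelium were mostly higher with TMM. Of 24, 19 were higher and 3 lower, with a median log2 fold change of 0.80, but with spike-in scaling the median was 0.04, with 6 higher and 5 lower. Clec14a and Mmrn2, which bind each other at the endothelial surface, had the largest rises, at 2.15 ± 0.13 and 1.69 ± 0.10. The receptors of the angiopoietin system came next. Tek (TIE2) had 450, 713 and 927 CPM against 159, 226 and 299 CPM, and Tie1 followed with 513, 658 and 988 CPM against 163, 245 and 375 CPM. Neither overlapped between the populations, and both stayed higher with spike-in scaling. The 3 lower genes were Emcn, a sialomucin of venous and capillary endothelium, at -0.71 ± 0.08, Robo4 at -0.74 ± 0.14 and the transcription factor Ets1 at -1.21 ± 0.15. Kdr (VEGFR2) was higher by 0.29 ± 0.09 with TMM, with spike-in scaling its log2 fold change was -0.26 and did not pass, and without the pool that stood apart on component 2 it was 0.22 and did not pass either.

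In the Notch pathway 18 of 33 genes tested were higher and 0 lower by edgeR (1 lower by DESeq2 and 2 at an unadjusted p under 0.05), at a median of 0.63 with TMM and 0.02 with spike-in scaling, where 9 were higher and 4 lower. Of the 18, Notch1, Notch4, Dll4, Jag1, Jag2, Hey1 and Hey2 are on the arterial list too. The ligand Jag1 had 501, 759 and 1080 CPM in GFP+ pools and 23.9, 50.5 and 116 CPM in GFP- pools, a log2 fold change of 3.71 ± 0.17 (edgeR adjusted p = 1.9e-21). Dll4, the arterial Delta ligand, had 107, 177 and 289 CPM against 2.75, 27.5 and 86.3 CPM. Per kilobase of exon, the mean level of Jag1 in Gata3-GFP+ ECs was 129 CPM and that of Dll4 46.8 CPM, against 9.86 and 8.19 CPM in Gata3-GFP- ECs. Among receptors, Notch1 was higher by 1.46 ± 0.11, Notch4 by 1.45 ± 0.14 and Notch3, known for its role in mural cells, by 3.29 ± 0.21 from 6.55 CPM at the median of GFP- pools to 67.2 CPM. The DNA-binding partner Rbpj had a log2 fold change of 0.09 ± 0.15 and the target Hes1 one of -0.49 ± 0.19, and neither was called with TMM. With spike-ins Hes1 was called lower, at -1.13 (edgeR adjusted p = 0.00014), and Rbpj was -0.55 and not called.

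Of 19 VEGF, angiopoietin and apelin genes tested 10 were higher and 5 lower (8 and 5 with spike-ins), with ligands, receptors and co-receptors on both sides. Vegfa, the main ligand of VEGFR2, had 17.6, 39.3 and 93.6 CPM in Gata3-GFP+ pools and 0, 3.29 and 11 CPM in Gata3-GFP- pools. Vegfc, the ligand of VEGFR3, had 156, 237 and 340 CPM against 1.03, 25 and 82.6 CPM. Neither ligand overlapped between the populations, while the receptor of Vegfc was among the 5 that were lower. The co-receptor Nrp1 had 841, 1162 and 1991 CPM against 126, 219 and 429 CPM, the reverse of Nrp2. Per kilobase of exon Nrp1 stood at 119 CPM and Nrp2 at 1.13 CPM in Gata3-GFP+ ECs, and at 23.2 and 19.4 CPM in Gata3-GFP- ECs. The 5 lower genes included Angpt2, the ligand released by activated endothelium, at -1.30 ± 0.41, a call that was lost without the pool far out on component 2, at -1.24.

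BMP and TGF-beta signaling, which acts on the aortic endothelium from the ventral side, gave 19 of 32 genes higher and 5 lower, at a median of 0.75 with TMM, and 10 higher and 8 lower with spike-in scaling, at 0.08. Bmp6, a ligand made by ECs, had 0.714, 10.4 and 38.2 CPM in GFP+ pools and 0, 0 and 1.02 CPM in GFP- pools. Bmp4 went the other way, with 0, 6.50 and 40.8 CPM against 13.3, 55.8 and 120 CPM. The ligands thus differed in direction, at log2 fold changes of 6.67 ± 0.54 and -2.09 ± 0.39. The type I receptor Bmpr1a had 24.7, 56.1 and 115 CPM against 0.374, 2.13 and 13.3 CPM, and the inhibitory Smad6, a target of the pathway, had 83.8, 111 and 149 CPM against 0.262, 5.85 and 29.1 CPM. The target Id1 was higher by 1.39 ± 0.16. Of the TGF-beta binding proteins, Ltbp1 and Ltbp4 were higher by 4.50 ± 0.28 and 5.43 ± 0.27, without overlap.

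Of 43 Wnt pathway genes tested 20 were higher and 3 lower at a median of 0.62, and 10 were higher and 4 lower with spike-in scaling, at 0.07. The 2 largest rises were Wnt11, a ligand of non-canonical signaling, with 6.37, 19.5 and 43.8 CPM against 0, 0 and 1.0 CPM, and Dkk2, a modulator of the LRP co-receptors, with 124, 177 and 284 CPM against 0, 1.34 and 13.2 CPM. Both separated all pools. The genes that fell include the mediator Lef1 at -2.0 ± 0.36 and the feedback inhibitor Nkd1 at -2.44 ± 0.57. Axin2, the usual readout of canonical signaling, had medians of 0.177 and 0.976 CPM and was not called.

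Hedgehog and FGF genes held 4 higher and 5 lower of 17 tested, and 3 higher and 7 lower with spike-ins. Dhh, the hedgehog ligand of endothelium, had 20.8, 51.7 and 101 CPM in Gata3-GFP+ pools and 0, 4.86 and 11.2 CPM in Gata3-GFP- pools. The receptor and target Ptch1 was higher by 0.90 ± 0.22 with TMM, and with spike-in scaling the value was 0.25 and not called. Fgfr1 was higher by 2.08 ± 0.11, whereas the FGF feedback genes Spry1 and Etv4 were lower by -2.85 ± 0.51 and -2.53 ± 0.56. Guidance genes (ephrins, semaphorins, Slit-Robo and netrin receptors) held 26 higher and 3 lower of 49, at a median of 1.18, and 18 higher and 7 lower with spike-in scaling, at 0.63. Sema3g, an arterial semaphorin, had 85.2, 125 and 288 CPM against 0.524, 6.96 and 26.4 CPM. Slit2, a ligand of Robo receptors, was higher by 2.75 ± 0.21. In the retinoic acid list 5 of 13 were higher and 1 lower, at a median of 0.15 that turned to -0.41 with spike-ins, where 2 were higher and 4 lower. The retinoic acid hydroxylase Cyp26b1 had 40.7, 120 and 199 CPM against 5.73, 34.9 and 92.9 CPM, a difference not called with spike-ins, at 0.75, and Dhrs3, which reduces retinal, was lower by -0.94 ± 0.26.

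**Figure D3:**
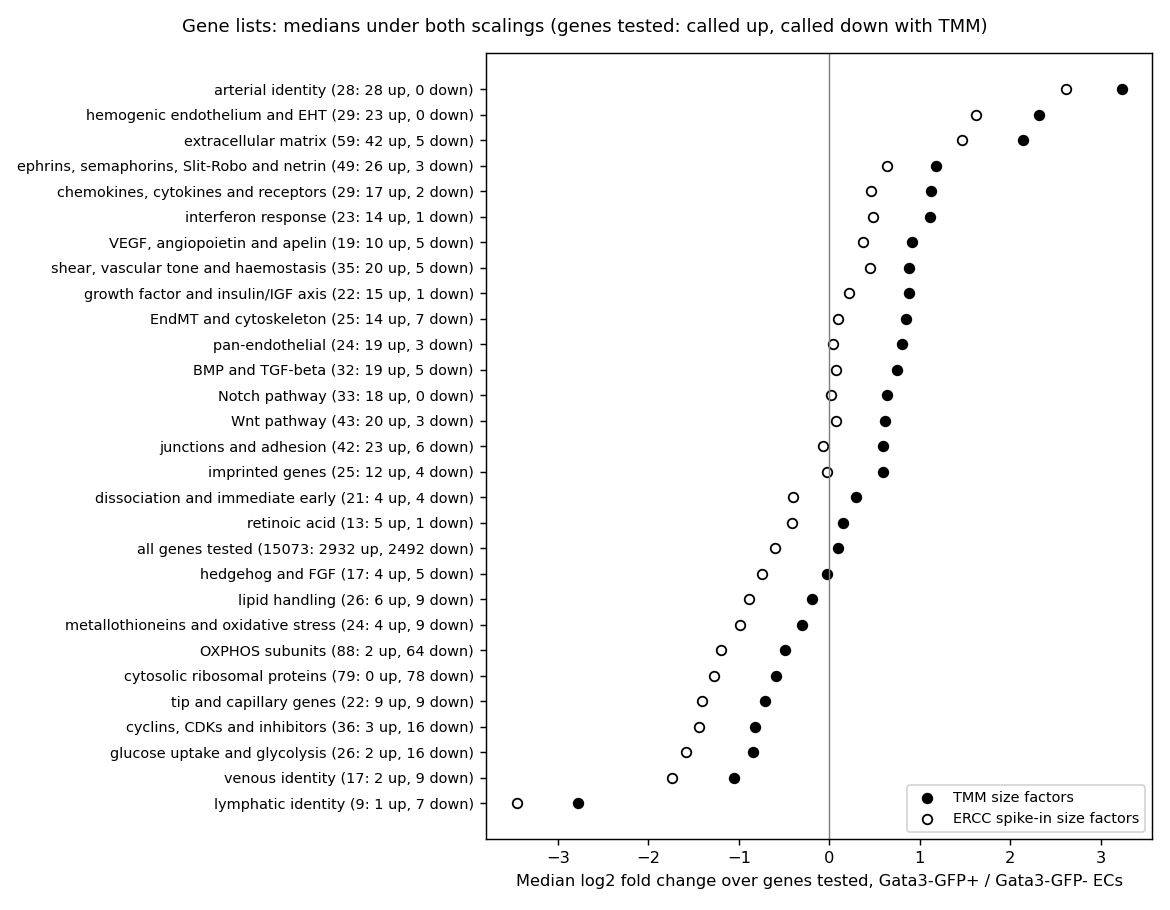
Median log2 fold change of Gata3-GFP+ over Gata3-GFP- ECs (x axis) for each gene list, with TMM size factors (filled) and spike-in size factors (open), and the genes tested, called higher and called lower in brackets. Arterial genes stand at 3.24 and 2.62, lymphatic genes at -2.78 and -3.45, and the junction, imprinted, immediate early and retinoic acid lists change sign with the spike-ins.

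Genes of flow, vascular tone and hemostasis held 20 higher and 5 lower of 35, at a median of 0.88, and 12 higher and 9 lower with spike-ins, at 0.45. Edn1 (endothelin 1), a vasoconstrictor, had 150, 317 and 484 CPM in Gata3-GFP+ pools and 3.49, 26.3 and 78.0 CPM in Gata3-GFP- pools. Nos3, the endothelial nitric oxide synthase, had 67.9, 129 and 201 CPM against 20.9, 40.1 and 59.5 CPM, although 32.3% of its exon length overlaps an antisense gene. Of the 5 lower genes the largest fall was that of Edn3 (endothelin 3), with medians of 0 and 1.64 CPM, and Ptgs1 (COX-1), which makes prostanoids, was lower by -1.61 ± 0.29. Pde3a, a cyclic nucleotide phosphodiesterase, had 116, 300 and 448 CPM against 0, 2.65 and 15.4 CPM, and Npr3, the natriuretic peptide clearance receptor, was higher by 3.68 ± 0.22. Calcrl, the adrenomedullin receptor, had 776, 1149 and 1398 CPM against 88.0, 181 and 263 CPM. Its partner Ramp2, which shares exon with Vps25, was higher by 1.27 ± 0.08, and its other partner Ramp3 was lower by -2.18 ± 0.64. The flow-responsive Klf2 was higher by 0.85 ± 0.18 with TMM and not called with spike-ins, at 0.34. Klf4 had 0.78 ± 0.26 and was just short of a call (edgeR adjusted p = 0.011). It was called higher by the DESeq2 Wald test (adjusted p = 0.0033). It was also called with DESeq2 size factors, with thinned counts and without the pool richest in mesenchymal markers. Tfpi, the tissue factor pathway inhibitor, was lower by -1.32 ± 0.12 without overlap, and Procr, the protein C receptor that also marks long-term stem cells, was higher by 3.03 ± 0.24.

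Of 59 extracellular matrix genes tested 42 were higher and 5 lower, with a median of 2.14, and 34 higher and 9 lower with spike-ins, at 1.47. Members of elastic fibers are given first, with no count of their own. Eln (elastin) had 47.1, 144 and 433 CPM in Gata3-GFP+ pools and 0, 1.37 and 6.59 CPM in Gata3-GFP- pools. Fbn1 (fibrillin 1), the microfibril protein, had 249, 492 and 711 CPM against 8.33, 24.1 and 53.3 CPM, and Fbln5 (fibulin 5), which joins elastin to microfibrils, had 28.3, 169 and 418 CPM against 0, 0.935 and 10.2 CPM. All 3 separated the populations fully, as did Fbln2 at 6.42 ± 0.42 and Mfap2, a microfibril-associated protein, at 2.24 ± 0.10. Fn1 (fibronectin) had 1560, 2182 and 3002 CPM against 125, 198 and 347 CPM, with a log2 fold change of 3.39 ± 0.11 (edgeR adjusted p = 6.6e-26). Basement membrane collagen Col4a1 was higher by 0.80 ± 0.08 with TMM, and at 0.19 with spike-ins it did not pass. Col15a1, a collagen of capillary basement membrane, was lower by -2.01 ± 0.32. Without both pools that stood apart, 39 of 56 matrix genes tested were higher and 5 lower.

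Junction and adhesion genes gave 23 higher and 6 lower of 42, at a median of 0.59. With spike-in scaling, which moved all genes by -0.70 at the median, the list median was -0.07, with 11 higher and 10 lower. Ocln (occludin), a tight junction protein, had 34.3, 60.5 and 99.4 CPM in GFP+ pools and 0, 0.359 and 9.65 CPM in GFP- pools. The scaffold Tjp1 (ZO-1) was higher by 1.39 ± 0.10 without overlap. Of the genes of endothelial-to-mesenchymal transition and cytoskeleton, 14 of 25 were higher and 7 lower, and with spike-ins 10 were higher and 8 lower. Zeb2 was higher by 1.51 ± 0.20, Snai1 was lower by -2.09 ± 0.30, and Snai2 had -0.23 ± 0.50 and was not called, so the repressors of this group differed in direction. Of the smooth muscle genes in the list, Acta2 had 10, 118 and 2671 CPM against 2.90, 7.05 and 20.3 CPM and Tagln 2.14, 32.2 and 463 CPM against 0.374, 1.88 and 10.2 CPM. Cnn2 (calponin 2) and Csrp1 were lower, by -0.63 ± 0.10 and -0.45 ± 0.14. The Csrp1 call was lost with DESeq2 size factors (-0.42), without a filter (-0.44) and without the pool far out on component 2 (-0.41). The pool with the highest Acta2 was the one richest in mesenchymal markers, and without it the log2 fold changes of Acta2 and Tagln were 4.41 and 3.91.

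Mesenchymal and mural markers moved with the populations and are given beside these groups. Of 20 such markers 12 were tested, and 9 rose in Gata3-GFP+ ECs and 0 were lower by edgeR, by DESeq2 or at an unadjusted p under 0.05. Their summed share of counts was 0.00518% to 0.433% in Gata3-GFP+ pools (median 0.0309%) and 0.00118% to 0.00949% in Gata3-GFP- pools (median 0.00328%), and 18 of 19 GFP+ pools exceeded all GFP- pools. In the Gata3-expressing mesenchymal pools of the same series, which are from E11.5 and so a day older, the median was 1.09%. Col1a1 had 0.514, 1.43 and 722 CPM in GFP+ pools, so its level was set by 1 pool, and without that pool its log2 fold change of 5.80 became 3.22 and still passed (edgeR adjusted p = 8.7e-05). Prrx1, a mesenchymal homeobox factor, had 0.271, 10.8 and 60.2 CPM against 0, 0.288 and 1.29 CPM. The stromal markers Dcn, Lum, Tcf21, Osr1 and Tbx18 did not reach 10 counts in 5 pools and were not tested, with medians of 0 to 0.286 CPM and a highest pool of 121 CPM for Dcn. The part of mesenchymal RNA in the matrix and contractile results was not tested.

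**Figure D4:**
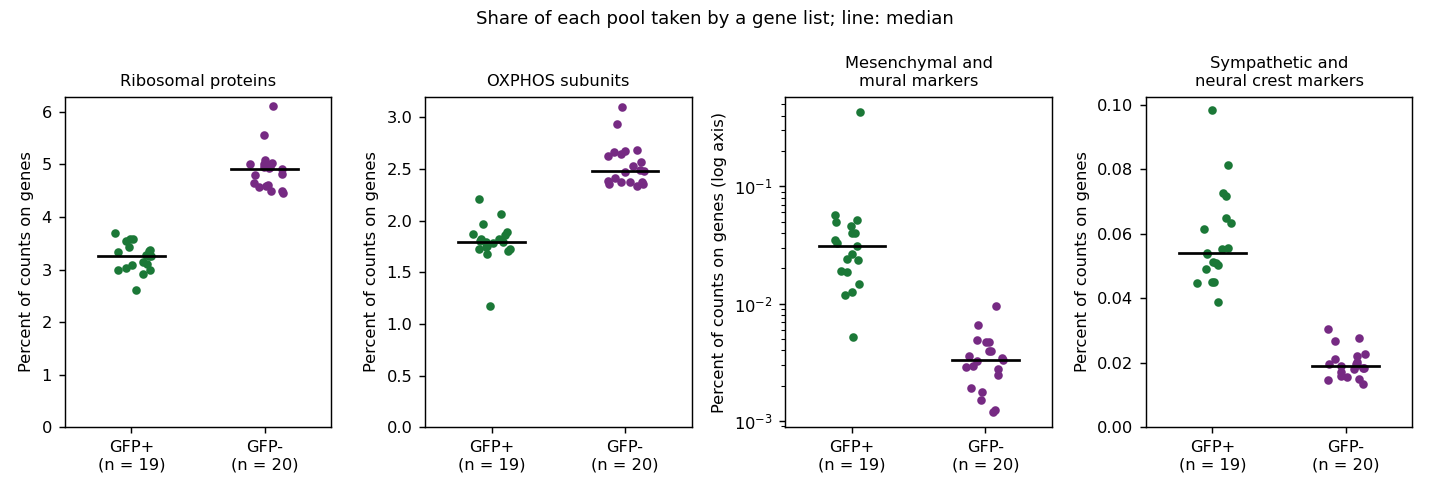
Percent of the counts on genes taken by cytosolic ribosomal proteins, OXPHOS subunits, mesenchymal and mural markers (log axis) and sympathetic and neural crest markers in 19 Gata3-GFP+ and 20 Gata3-GFP- pools, 1 point per pool, with the median as a line. Ribosomal protein shares are 2.60 to 3.70% against 4.45 to 6.11%, and 1 GFP+ pool reaches 0.433% of mesenchymal markers. At the median, most of the sympathetic and neural crest share is Stmn2 in GFP+ pools and Gap43 in GFP- pools.

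Markers of other Gata3-expressing tissues of the AGM were low but also differed. The summed sympathetic and neural crest markers took 0.0387% to 0.0982% in Gata3-GFP+ pools and 0.0133% to 0.0304% in Gata3-GFP- pools. Of 7 tested, 3 were higher, of which Stmn2, a microtubule regulator, had 256, 371 and 723 CPM against 13.8, 43.0 and 146 CPM and Isl1, a LIM homeobox factor, had 49.9, 111 and 173 CPM against 0.263, 1.27 and 16 CPM. Dbh, which makes noradrenaline, was the other one, at medians of 1.08 and 0.360 CPM, and at 1.87 with spike-ins it was not called. Gap43, a growth cone protein, was lower, with 16.6, 42.1 and 69.7 CPM against 64.9, 130 and 187 CPM. At the median, most of the summed share was Stmn2 in Gata3-GFP+ pools and Gap43 in Gata3-GFP- pools. The sum thus reflects different genes in the populations and not a rise of the whole set. Th, the tyrosine hydroxylase that defines sympathetic cells, stayed at or under 1.08 CPM in every EC pool. Nephric and epithelial markers took 0.00654% to 0.0234% against 0.000166% to 0.00237%. Krt18, a simple epithelial keratin, had 22.1, 57.3 and 117 CPM against 0, 0.412 and 3.45 CPM, and Ret, the GDNF receptor, was higher by 4.62 ± 0.56. Pax2, Pax8 and Cdh1, which define nephric epithelium, did not reach 10 counts in 5 pools, and their medians were 0 to 0.224 CPM. The part of RNA from these tissues in the results was not tested. Myeloid markers took 0.0207% to 0.0519% against 0.0109% to 0.0292%, and of 17 tested only Laptm5 was called. Megakaryocyte markers took 0.123% to 0.294% against 0.0186% to 0.0532%, with Vwf, Itgb3 and Gp1ba higher and Clec1b, a podoplanin receptor, lower. At the median, most of this share in Gata3-GFP+ pools was Vwf, an endothelial gene that is also on the venous list. Of 5 erythroid markers tested 3 were higher with TMM and 0 were called with spike-ins. Coelomic and gonadal markers took 0.0124% to 0.0459% against 0.00437% to 0.0197%. The summed trophoblast markers took 2.8e-05% to 0.00697% against 0.00733% to 0.0269%. The single one tested, the placental lactogen gene Prl3b1, was lower by -4.49 ± 0.54 without overlap. Of 14 such markers it alone reached 10 counts in any Gata3-GFP- pool, while 5 markers did so in Gata3-GFP+ pools. The part of RNA from these other cell types in the results was not tested either.

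Hemogenic endothelium and EHT genes were higher in Gata3-GFP+ ECs. Of 31 listed 29 were tested, and 23 were higher and 0 lower by edgeR, by DESeq2 or at an unadjusted p under 0.05, with a median of 2.32, or 1.62 with spike-ins. With spike-ins 1 gene was called lower, Cbfb, at -0.86 (edgeR adjusted p = 0.00031). Cd44, an adhesion receptor of EHT-stage cells, had 115, 191 and 349 CPM in Gata3-GFP+ pools and 1.64, 8.77 and 26.3 CPM in Gata3-GFP- pools. Mecom (EVI1), a stem cell regulator, had 262, 394 and 566 CPM against 12.7, 45.8 and 112 CPM, and Mllt3, which maintains stem cells, had 97.3, 167 and 301 CPM against 6.80, 15.9 and 41.1 CPM. These 3 separated the populations in every pool. Ikzf2 (HELIOS) had 22.9, 76.1 and 131 CPM against 0, 2.18 and 18.3 CPM, and Bcl11a 41.7, 90.0 and 174 CPM against 3.60, 11.9 and 24.9 CPM. Factors of later blood steps were low and uneven. Spi1 (PU.1) had 0.462, 6.43 and 78.4 CPM in GFP+ pools, and Myb had medians of 0.306 and 0.640 CPM and was not called. Kit, the stem cell factor receptor, had 16.7, 54.6 and 137 CPM against 22.9, 63.3 and 126 CPM, with a log2 fold change of 0.02 ± 0.22, and the blood antigen genes of the sort, Itga2b (CD41) and Ptprc (CD45), had -0.02 ± 0.43 and 0.16 ± 0.37.

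**Figure D5:**
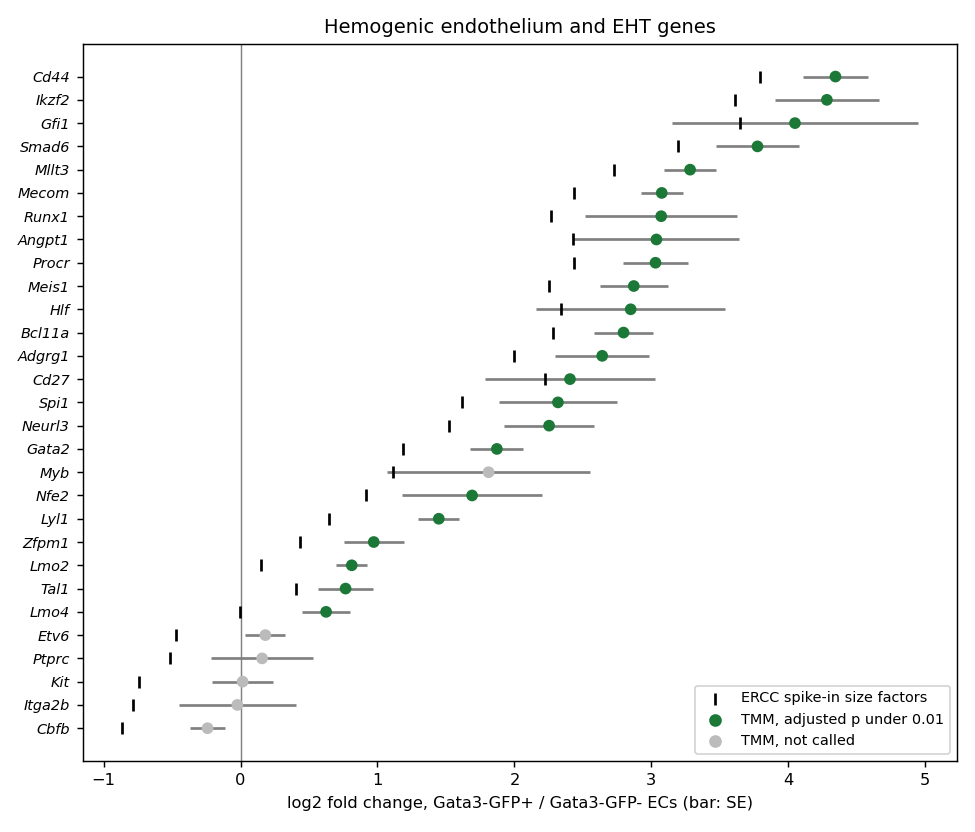
Log2 fold change of Gata3-GFP+ over Gata3-GFP- ECs (x axis) for 29 hemogenic endothelium and EHT genes, with bars for the SE, green where the adjusted p was under 0.01 with TMM, and ticks for the value with spike-in size factors. Cd44 stands at 4.34 and Cbfb at -0.24, each tick lies to the left of its point, and Kit, Ptprc, Etv6 and Lmo4 change sign with the spike-ins.

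Transcription factor families were followed over 510 genes of 32 families, of which 281 were tested. With TMM 109 were higher and 30 lower, beside 19.5% higher and 16.5% lower of all genes tested. In the GATA family 3 of 4 tested were higher, Gata2, Gata6 and Gata3, and the rise of Gata3 follows from the sort by its reporter. Nkx2-3, a homeobox factor of visceral vessels and spleen, had 43.6, 76.1 and 141 CPM in Gata3-GFP+ pools and 0, 0.512 and 12.7 CPM in Gata3-GFP- pools, and Sox6 had 43.8, 57.3 and 146 CPM against 0, 1.02 and 9.65 CPM. Neither gene overlapped between the populations. Vdr, the vitamin D receptor (median 9.83 CPM in GFP+ pools), and Lmo7 (37.6 CPM) were among the 10 largest rises, as were Hey2, Prrx1, Isl1 and Ikzf2. The largest fall was that of Lhx6, a LIM homeobox factor, with 0, 0 and 18.5 CPM against 16.8, 31.6 and 52.4 CPM, and Nr2f2, Prox1, Etv4, Snai1, Lef1, Myc, Tbx1 and Atf3 were also among the 10 largest. Among Hox genes 5 of 22 were higher, beside 19.5% of all genes tested. By edgeR or at an unadjusted p under 0.05, 0 were lower. The list median of 0.47 turned to -0.05 with spike-ins. Hoxa9, a posterior Hox gene of blood stem cells, had 38.0, 87.8 and 121 CPM against 8.55, 24.3 and 42.5 CPM.

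Chemokine and cytokine genes held 17 higher and 2 lower of 29, and interferon response genes 14 higher and 1 lower of 23, with medians of 1.12 in both. With spike-ins the first list held 9 higher and 5 lower and the second 6 higher and 1 lower. Osmr, the oncostatin M receptor, had 25.7, 47.6 and 98.4 CPM against 0, 1.67 and 9.28 CPM, and Lifr, its relative, was higher by 1.12 ± 0.11 with TMM, while at 0.46 with spike-ins it was not called. Kitl, the ligand of Kit, was lower by -0.95 ± 0.23. Ifitm3, an antiviral membrane protein, had 232, 440 and 636 CPM against 45.9, 82.3 and 145 CPM, and Bst2 was higher by 1.65 ± 0.12. The induced gene Rsad2 was the lower one, with a median of 0.289 CPM against 30.3 CPM. The list was therefore not uniform in direction.

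The list of growth factor genes and of the insulin and IGF axis held 15 higher and 1 lower of 22. With spike-ins 8 were higher and 4 lower. Erbb2, Ccn1, Pdgfd, Nrg1, Pdgfc and Met, which lie outside that axis, were among the 15. Igf2, the embryonic growth factor, had 6275, 7535 and 10261 CPM in Gata3-GFP+ pools and 1657, 2071 and 3440 CPM in Gata3-GFP- pools. H19, the imprinted noncoding RNA beside it, had 4261, 6443 and 7736 CPM against 686, 1204 and 1901 CPM. Both lie on chromosome 7 and neither overlapped between the populations. Igf1 was the lower one, at -1.86 ± 0.24. Of 25 imprinted genes 12 were higher and 4 lower, with a median of 0.59 that turned to -0.02 with spike-ins, where 4 were higher and 5 lower, and Mest and Gnas, at -1.22 ± 0.15 and -1.68 ± 0.15, were among the lower. Met, the receptor of hepatocyte growth factor, had 19.9, 46.5 and 124 CPM against 0, 0.679 and 12.9 CPM.

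Most genes tested of glycolysis, OXPHOS and the cytosolic ribosome were lower. Library measures moved with the populations too. The median mitochondrial share of counts was 7.66% in Gata3-GFP+ and 6.46% in Gata3-GFP- pools, that of reads on no feature 15.4% and 12.6%, and that of spike-ins 1.67% and 0.950%, and their part in these results was not tested. Of 26 glycolysis genes tested 16 were lower and 2 higher, at a median of -0.84, or -1.59 with spike-ins. Pkm, pyruvate kinase, had 193, 293 and 444 CPM in Gata3-GFP+ pools and 626, 857 and 1237 CPM in Gata3-GFP- pools, and Ldha, lactate dehydrogenase, had 332, 546 and 734 CPM against 924, 1317 and 1685 CPM. Eno1, enolase, was lower by -1.36 ± 0.09, also without overlap, and the glucose transporter Slc2a1 by -0.80 ± 0.24 with wide overlap. The Slc2a1 call was lost without a filter, at -0.78. The pair that was higher was Pdk2, a kinase that holds back pyruvate entry into mitochondria, at 1.96 ± 0.37, and Pfkfb2, at 2.24 ± 0.62, which was not called with spike-ins, at 1.55. Of 88 OXPHOS subunit and assembly genes 64 were lower and 2 higher, at a median of -0.49, and their summed share of counts was 1.18% to 2.21% against 2.34% to 3.11%. Among 79 cytosolic ribosomal protein genes 78 were lower and 0 higher by edgeR (1 higher by DESeq2 and 1 at an unadjusted p under 0.05). In 34 of the 79 the populations did not overlap, beside 1.49% of all genes that were lower without overlap. Fold changes of the ribosomal protein genes were small, with a median of -0.59, and the summed share was 2.60% to 3.70% against 4.45% to 6.11%. Ribosomal protein and glycolytic genes have many processed pseudogenes that share reads with them, so single values are uncertain.

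In lipid handling 6 of 26 were higher and 9 lower, and with spike-ins 3 were higher and 14 lower. Cpt1a, which takes fatty acids into mitochondria, had 4.63, 38.4 and 93.3 CPM in GFP+ pools and 0, 8.75 and 20.7 CPM in GFP- pools, while the fatty acid transporter Cd36 and the binding protein Fabp4 were lower by -2.10 ± 0.51 and -2.66 ± 0.72. Of 24 metallothionein and oxidative stress genes 4 were higher and 9 lower, and with spike-ins 3 were higher and 16 lower. Mt3 had 11.6, 29.9 and 84.9 CPM against 0, 0 and 1.15 CPM and Mt1 0.897, 6.44 and 19.5 CPM against 11, 25 and 50.2 CPM, so members of this one family differed in direction. Of 36 cell cycle genes tested 16 were lower and 3 higher. The list held cyclins, their kinases and inhibitors, and also replication, E2F, pocket protein and Myc genes. Mcm2 to Mcm7, Pcna, E2f1 and Myc were among the 16 lower ones. Ccnd1 (cyclin D1) had 0.871, 13.3 and 58.0 CPM against 103, 175 and 275 CPM without overlap, while Ccnd2 had 184, 302 and 471 CPM against 209, 306 and 501 CPM and a log2 fold change of 0.01 ± 0.11, or -0.63 with spike-ins. The 3 higher genes were the inhibitors Cdkn1c and Cdkn1b and the pocket protein Rb1, and with spike-ins Cdkn1b (0.25) and Rb1 (0.20) were no longer called, which left 1 higher and 23 lower. Of 21 immediate early and dissociation genes 4 were higher and 4 lower, at a median of 0.30 that turned to -0.40 with spike-ins, and Fos had a log2 fold change of 0.22 ± 0.32 that was -0.53 with spike-ins.

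Some of the largest changes over all genes fell outside these groups. Cytl1, a secreted cytokine-like protein, had a median of 28.1 CPM in Gata3-GFP+ pools and 0 CPM in Gata3-GFP- pools, and Ptgfr, the prostaglandin F receptor, had 7.54 and 0 CPM. Among the falls, Fam167b had medians of 1.46 and 51.7 CPM, Nlrc3, a regulator of innate immune signaling, 0.579 and 26.3 CPM and Ada, adenosine deaminase, 0.354 and 19.7 CPM. The ranges of all 5 genes overlapped at their edges. S100a4, a calcium-binding protein, did not overlap, but 51.7% of its exon length is shared with another gene and its median was only 4.62 against 0 CPM.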

How the data were processed

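RNA of 20-cell pools was measured by Smart-seq2 in 40 endothelial pools, of which 39 were analysed. The authors deposited whole-number read counts per gene and ERCC spike-in, made with HTSeq (version 0.5.3p3 per the submitters' processing notes) on the mm10 build. The study's methods name STAR as aligner and the submitters' processing notes name GSNAP, and strand and overlap settings are not given in the sources used here. In the passing pools 8.71% to 18.8% of reads were ambiguous, 9.29% to 20.4% on no feature and 19.4% to 38.5% not aligned, and these summary lines stayed out of all totals. No columns were left unmapped, and 0 pools had identical values.

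Genes that reached 10 counts in 5 or more of the 39 pools were tested with edgeR 4.0.16 (R 4.3.3; TMM, robust quasi-likelihood, Benjamini-Hochberg adjusted p under 0.01). SEs were the log2 fold change divided by the root of F. Tested on simulated counts of this comparison with 14587 genes, 107 of 189 changed genes were called (41.2% of 2-fold and 72.8% of 4-fold changes) with 0 false calls. The planted changes were few and of balanced sign, and the pools were drawn independently. In the data 36.0% of genes were called and spike-in scaling moved all fold changes, so these rates need not carry over. Correlations used log2(CPM + 1) and 100000 permutations, two-sided. Figures were drawn with matplotlib 3.10.9.

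Named genes were the gate and marker genes, core members of each list, the 2 largest changes per list and direction, and the 10 largest rises and falls among all genes and among transcription factors, given at least 10 counts in 75% of pools of the higher population. Others were named to describe a list after their values were seen. Some genes that the rule selects are not reported here. The members and lists were chosen with earlier results of these data known. Alternatives were DESeq2 1.42.0, spike-in size factors, other filters, thinned counts and the 40th pool, and leaving out 2 pools was chosen after seeing the data. Sequences came from RefSeq and exons from GENCODE. Of the genes named, Sox17, Lef1, Dhh, Spry1, Nos3, Ramp2, Fbn1, Mest, Gnas, Pfkfb2, Ccnd1, Rb1 and S100a4 overlap another counted gene over more than 10% of their exon length and are uncertain to that extent.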

Additional observations from a re-analysis of the deposited data

How the results depend on the processing

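With spike-in size factors 951 genes were higher and 5685 lower, against 2932 and 2492 with TMM. In the other alternatives run both counts stayed within 1.5 times of these. Of the genes higher with TMM, 596 had a fold change below 0 with spike-ins and 12 were called lower. Among genes named in the text the sign changed for Ccnd2 (-0.63), Fos (-0.53), Kdr (-0.26), Kit (-0.74), Ptprc (-0.51), Rbpj (-0.55), Etv6 (-0.47) and Lmo4 (-0.0073). The remaining changes of sign were in genes close to 0. Ccnd2 was -0.011 with all 40 pools, -0.036 with thinned counts, -0.0023 without the pool far out on component 2, -0.027 without the pool richest in mesenchymal markers and -0.040 without both. Itga2b was 0.018 with DESeq2 size factors, 0.0015 without a filter, 0.017 by the Wald test, 0.15 with all 40 pools, 0.036 with thinned counts, and 0.024, 0.026 and 0.076 without the first, the second and both of these pools. Rbpj was -0.040 with thinned counts and Kit -0.00017 with all 40 pools. Without the 2 pools farthest from the median Gata3 level, r changed sign for Hey2 (-0.24), Gja5 (-0.27) and Dll4 (-0.00090) in Gata3-GFP+ pools and for Sox17 (-0.034) and Nr2f2 (-0.0041) in Gata3-GFP- pools. The cause was not tested. No paired analysis was possible because the columns of the count table carry no pool numbers. Genes without 10 counts in 5 pools were not tested, and a missed call does not show equality.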
